A study of Mus musculus with 2 samples.

Results

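The stanniocalcins and the insulin-like growth factor (IGF) axis were followed in collecting duct cells of mice with and without a deletion of Gata2. The named set held 10 genes: Stc1, Stc2, Igf1, its receptor Igf1r, and the IGF binding protein genes Igfbp2 to Igfbp7. Every probe that was not a control and that the files name after one of these genes was taken, which gave 21 of 41173 probes, for 9 of the 10 genes. No probe carries the name Igfbp6, so its expression was not analysed here. Of the 21 probes, 17 were well above background on both arrays and 4 on neither, so 8 genes had a measured difference. The genes had been selected on their CKO minus WT differences and levels on these same arrays, so that these values are given as a description.

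Gata2 CKO mice carried 1 floxed and 1 null allele of Gata2 (Gata2flox/-) with the Pax8-rtTA and Tet-Cre transgenes, which delete the floxed allele in renal tubules under doxycycline. Wild-type (WT) mice were the comparison, and their label names no transgene. Mice of both genotypes were 8 weeks old, of mixed sex, and described as given doxycycline solution for 4 weeks from an age of 4 weeks. Collecting duct cells were purified with Dolichos biflorus agglutinin, a lectin that binds this epithelium, and magnetic beads. Each genotype was measured on 1 array. The design text names 3 mice per genotype, and no label states whether their RNA was pooled. There was thus no replicate check and no test, and a difference cannot be split into fewer cells of a type and less RNA per cell. The null allele also leaves cells outside the tubules with 1 copy fewer than in WT mice.

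All levels are log2 of the scanner's processed signal relative to the 75th percentile of the same array, which was lower on the CKO array than on the WT array, where it was a signal of 314. Differences are CKO minus WT on that scale, with the scanner software's error for the spots alone. Of the collecting duct markers, all 12 of principal cells and all 12 of intercalated cells were well above background. Gata2 itself was at −0.37 ± 0.20 and −0.32 ± 0.20 by its 2 probes. The floxed exons are not named in the labels, so whether these probes lie inside the deleted part is not known. The values thus do not tell how far Gata2 was deleted, and the reason for their size was not tested.

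IGF1 is a small secreted hormone that acts through a receptor tyrosine kinase, the IGF1 receptor, to drive growth and survival of cells. Most of it is held by binding proteins, which keep it from the receptor until they are cut by proteases. Stanniocalcins are secreted glycoproteins first known from fish, where they lower calcium. In mammals both act locally and bind and block the pappalysins, the proteases that cut the binding proteins encoded by Igfbp4 and Igfbp5. Stanniocalcin 1 is made in the collecting duct of the mammalian kidney.

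Of the 60-base probe sequences of the set, 5 are shown, with their positions on mm9. They were chosen as probes with a reading frame open over the part that codes. The Stc1 probe at position 315 of its transcript lies at chr14:69649656-69650303 on the plus strand and spans 648 bases of the genome, so it crosses an exon junction. The only probes of Stc2 and Igfbp2 lie at chr11:31260136-31260195 on the minus strand and at chr1:72898677-72898736 on the plus strand. The Igf1 probe at position 486, at chr10:87376418-87376477 on the plus strand, is the one the files assign to transcript variant 2. The Igfbp4 probe at position 637, at chr11:98909591-98909650 on the plus strand, is the one that differed in sign from the other probe of its gene. Apart from this choice, positions within coding or untranslated sequence were not analysed here.
Stc1, position 315: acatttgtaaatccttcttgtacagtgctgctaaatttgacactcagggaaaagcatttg
Stc2, position 1038: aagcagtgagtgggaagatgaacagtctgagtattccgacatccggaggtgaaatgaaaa
Igf1, position 486: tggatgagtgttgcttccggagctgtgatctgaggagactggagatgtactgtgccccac
Igfbp2, position 946: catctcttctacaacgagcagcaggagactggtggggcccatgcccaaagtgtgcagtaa
Igfbp4, position 637: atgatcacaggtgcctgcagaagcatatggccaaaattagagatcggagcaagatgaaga

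Both stanniocalcin genes were lower in the CKO cells, by the widest margins in the set when each gene was read from its brightest probe. Stc1 had a level of −0.37 on the CKO array and 1.38 on the WT array at its brightest probe, a difference of −1.74 ± 0.21. Its other probes, which lie elsewhere along the transcript, gave −1.42 against 0.22 at position 3187 and −2.43 against −0.95 at position 315. These are differences of −1.64 ± 0.21 and −1.49 ± 0.22. The 3 probes thus agreed within 0.25 on the log2 scale, and the CKO level was 29.9%, 32.1% and 35.7% of the WT level. The junction probe fell short of 2-fold, at −0.70, when the background was corrected with normexp, which adds an offset of 50 to every signal and shrinks the differences of dim probes.

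Stc2 was measured by 1 probe, at −2.38 on the CKO array and −0.45 on the WT array. Its difference of −1.93 ± 0.22 left 26.2% of the WT level. In signal, Stc2 stood at 48.1 on the CKO array and 231 on the WT array, both above the dimmest spots called well above background, at 11.6 on the CKO array and 12.04 on the WT array. Of all 26616 probes measured, 180 were at or below the Stc2 difference and 222 at or below the −1.74 of Stc1, which is 0.676% and 0.834%. For the Stc1 probe at position 315 it was 328 probes, or 1.23%. The genes were chosen on these same differences, so nothing is read from such shares. The difference of Stc2 was −1.09 with normexp.

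**Figure D1:**
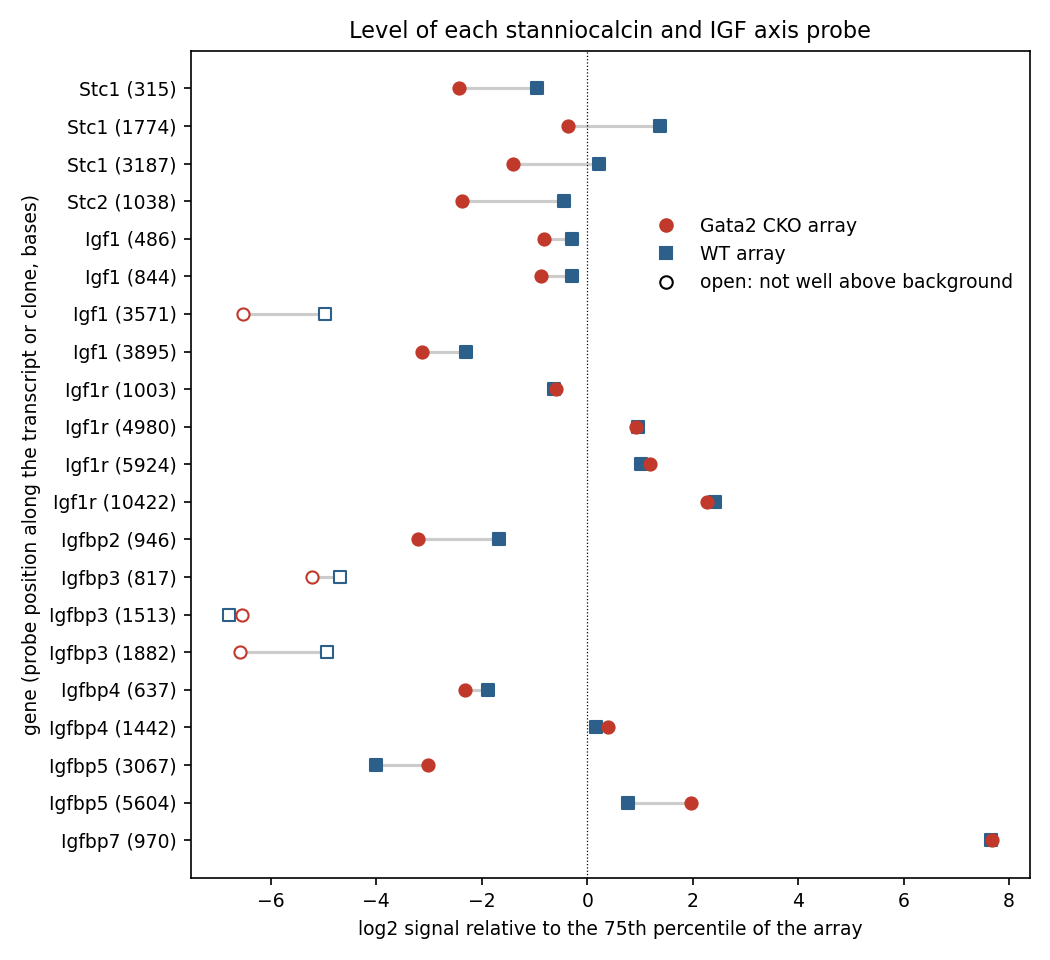
Level of each probe on the Gata2 CKO array (red circles) and the WT array (blue squares), as log2 signal relative to the 75th percentile of its array, with the probe's position along the transcript or clone in brackets. The 3 Stc1 probes, Stc2, Igfbp2 and the 3 filled Igf1 probes lie to the left on the CKO array, both Igfbp5 probes to the right, and the 4 open probes were not well above background.

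The ligand Igf1 was lower by a smaller amount at each probe that measured it. Its probe at position 844, printed 10 times, had a median signal of 135 on the CKO array, with spots from 124 to 145, and of 254 on the WT array, with 9 spots from 245 to 271 after 1 outlier was left out. These signals did not overlap between the arrays, but they are from before scaling, and the WT array was the brighter. Whether other probes printed several times also separate in this way was not tested. After scaling, the level was −0.88 on the CKO array and −0.30 on the WT array, a difference of −0.59 ± 0.21. The standard deviations over spots were 0.069 and 0.048. The spots and their standard deviations describe 1 hybridisation per genotype and not the mice.

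The Igf1 probe at position 486, assigned to transcript variant 2, gave nearly the same, at −0.82 on the CKO array and −0.29 on the WT array. Its difference was −0.53 ± 0.21. Whether this probe reads that variant alone was not analysed here. The probe furthest along the transcript, at position 3895, was dimmer and gave −3.13 against −2.31, a difference of −0.82 ± 0.25. The CKO level was thus between 56.6% and 69.4% of the WT level, and no measured Igf1 probe was 2-fold apart. With spike-in scaling, which uses control transcripts added to the RNA, the probes at positions 486, 844 and 3895 were at −1.07, −1.13 and −1.36, all past 2-fold. With normexp the probes at positions 486, 844 and 3895 were at −0.34, −0.43 and −0.24, still lower but by less. A further Igf1 probe, made to an uncharacterised cDNA clone, was not well above background on either array, with signals of 2.72 on the CKO array and 10.03 on the WT array. Igf1 is also a gene of macrophages. All 12 macrophage markers, Lyz2, Csf1r and C1qa among them, were lower, beside 45.3% of all measured genes. Their median was −0.83. Their summed level, to which Lyz2 adds the most, was 54.5 on the CKO array against 109.9 on the WT array, in units of the 75th percentile. Their part in the Igf1 difference was not tested.

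The receptor gene Igf1r had 4 probes, all well above background, and no difference larger than the spot error. At position 10422 its level was 2.26 on the CKO array and 2.43 on the WT array, a difference of −0.16 ± 0.20. At position 5924 it was 1.20 against 1.03, a difference of 0.17 ± 0.20. The probes at positions 4980 and 1003 gave −0.03 and 0.02. The Igf1r probes therefore split 2 and 2 in sign, over a range of 0.33. With spike-in scaling, which lowers every difference by the same amount, all 4 were lower, from −0.71 to −0.37, beside a median of −0.52 over all genes.

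The binding protein genes went different ways. Igfbp2, which encodes a binding protein with a preference for IGF2, had a level of −3.21 on the CKO array and −1.67 on the WT array. Its difference of −1.55 ± 0.25 left 34.3% of the WT level. It was dim, with a signal of 27.0 on the CKO array and 99.0 on the WT array, and its difference was −0.59 with normexp, short of 2-fold.

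Igfbp5, which encodes a binding protein that also attaches to extracellular matrix, was the member higher in the CKO cells by the widest margin. Its bright probe had a level of 1.96 on the CKO array and 0.77 on the WT array, a difference of 1.19 ± 0.20, or 2.28 times the WT level. Its dim probe, with signals of 30.8 on the CKO array and 19.6 on the WT array, gave 0.98 ± 0.33, just short of 2-fold. Of all measured probes 197 were at or above the difference of the bright one, which is 0.740%, and 393 at or above that of the dim one, or 1.48%. Nothing is read from these shares, since the gene was chosen on these differences. With spike-in scaling the bright probe was at 0.65 and the dim one at 0.44, still higher in the CKO cells but short of 2-fold. With normexp the dim probe was at 0.50.

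Igfbp2 and Igfbp5 are neighbours on chromosome 1, with no other protein-coding gene between them in the RefSeq table of GRCm38.p6, and are transcribed from opposite strands. On mm9, 6092 bases separate the Igfbp2 probe from the nearest Igfbp5 probe. Across this distance the difference was −1.55 on one side and 1.19 on the other, so that the pair went opposite ways. With normexp these differences were −0.59 and 1.09. The signs were the same under all 9 alternatives run on single probes, but several of these leave the values of both probes unchanged or nearly so.

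Igfbp4, whose product is a main substrate of the pappalysin encoded by Pappa, gave probes that disagreed. At position 1442 its level was 0.39 on the CKO array and 0.17 on the WT array, a difference of 0.22 ± 0.20. At position 637 it was −2.31 against −1.88, a difference of −0.43 ± 0.22. The standard deviation between these 2 probes was 0.46, against a root mean square of 0.27 over 5286 genes, and no direction is given for Igfbp4. With normexp the probes were at 0.18 and −0.13. The probe at position 1442 turned to −0.32 with spike-in scaling.

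Igfbp7, which encodes a secreted protein of vessel walls and epithelia that binds IGFs only weakly, differed by less than its spot error. Its level was 7.67 on the CKO array and 7.65 on the WT array, a difference of 0.02 ± 0.20, and the sign turned under 4 of the 9 alternatives. Igfbp3, which encodes the main carrier of IGFs in blood, had 3 probes and none was well above background, with signals from 2.61 to 6.73 on the CKO array and from 2.84 to 12.3 on the WT array. At that brightness no level or fold is given.

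**Figure D2:**
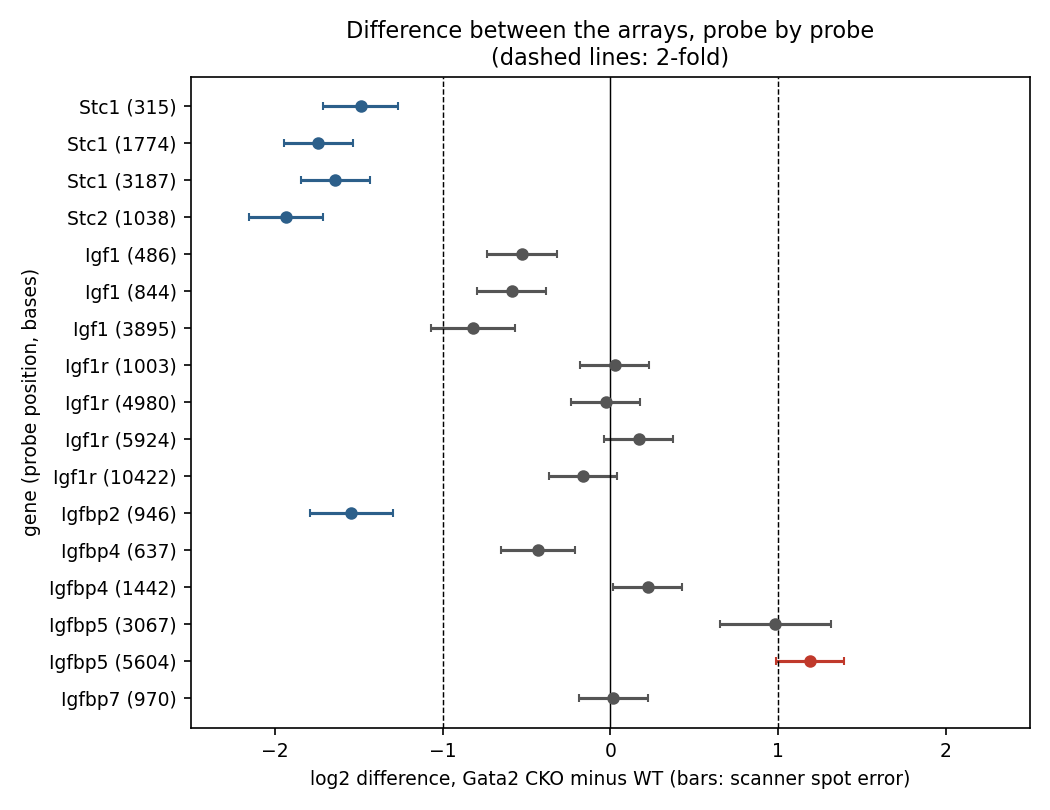
Difference of each measured probe, Gata2 CKO minus WT on the log2 scale, with the scanner's spot error as bars and dashed lines at 2-fold. Stc1, Stc2 and Igfbp2 (blue) lie below −1, 1 probe of Igfbp5 (red) lies above 1, and the remaining probes (grey) lie between.

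Counted over probes, 5 of 17 were at least 2-fold lower in the CKO cells and 1 at least 2-fold higher, where 2.51% and 1.39% of all measured probes were, and 3.9% were 2-fold apart in either direction. Counted over genes by their brightest probe, 3 of 8 were at least 2-fold lower and 1 at least 2-fold higher, where 3.36% and 1.23% of all measured genes were, and 4.6% in either direction. Since the set was drawn up from this same contrast, nothing is read from these shares. In sign, 11 of 17 probes were lower and 6 higher, with a median of −0.43, beside 41.7% of all probes lower, 58.3% higher and a median of 0.05 over all. Of the 8 genes, 5 were lower and 3 higher, with a median of −0.35, beside 45.3% of all genes lower and 54.7% higher. The probes nearest to the 2-fold line on the higher side were the dim Igfbp5 probe, at 0.98 short of it, and the bright Igfbp5 probe, at 1.19 past it. Over all probes the split of 369 higher and 669 lower came to 260 and 802 after cyclic loess and to 74 and 2139 with spike-in scaling.

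**Figure D3:**
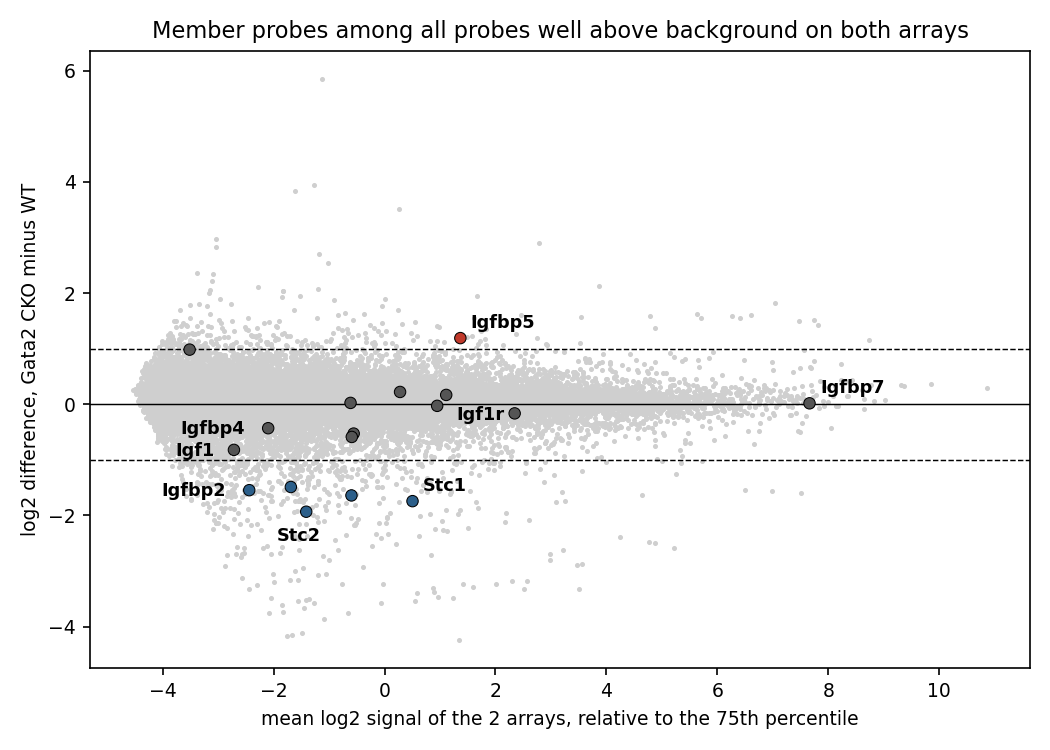
Difference (Gata2 CKO minus WT, log2) against mean level for all probes well above background on both arrays (light grey), with the 17 member probes marked and 1 label per gene. The Stc1, Stc2 and Igfbp2 probes (blue) lie below the dashed 2-fold line, and the bright Igfbp5 probe (red) above it.

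Other genes of the pathway were read from lists of ligands, proteases and signalling genes. The pappalysin gene Pappa, whose product is the protease that stanniocalcins block, was lower in the same direction as both stanniocalcin genes. It had a signal of 1134 on the CKO array and 3741 on the WT array at its brighter probe, a difference of −1.39 ± 0.20, with −1.53 at its other probe. Its difference at the brighter probe was −1.38 with normexp and −1.94 with spike-in scaling. Its relative Pappa2 was not well above background, with a signal of 2.51 on the CKO array and 4.84 on the WT array. Htra1, a secreted serine protease that cuts the product of Igfbp5, was at −1.86 ± 0.20, with a signal of 420 on the CKO array and 1919 on the WT array.

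Of the 14 genes of proteases that cut binding proteins or are listed with them, 10 were measured, 8 lower and 2 higher, with a median of −0.36 beside 0.03 over all measured genes. Of these, 3 were at least 2-fold lower and 1 at least 2-fold higher, where 3.36% and 1.23% of all measured genes were. The list was chosen with earlier results of these data known, so nothing is read from these counts. Beside Pappa and Htra1 the matrix metalloproteinase gene Mmp7 was at −1.77 ± 0.33, though at −0.53 with normexp. The tissue kallikrein gene Klk1 was higher, at 1.51 ± 0.20, or 0.97 with spike-in scaling. The protease genes Prss23 and Ctsd, which encodes cathepsin D, were at −0.47 and −0.43. The plasminogen activator genes went apart, with Plat at −0.28 and Plau at 0.49, or −0.05 with spike-in scaling. The summed level of the measured list is carried by Klk1 and was 439 on the CKO array and 240 on the WT array.

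Of the 8 other ligands, receptors and carriers, 5 were measured, 3 lower and 2 higher, with a median of −0.18, or 0.02 with the mean of each gene's probes. Igfbp1, the neighbour of Igfbp3 on chromosome 11 in the RefSeq table, was at −1.53 ± 0.36, but dim, with a signal of 12.3 on the CKO array and 44.7 on the WT array, and at −0.29 with normexp. The ligand gene Igf2 had a signal of 7.48 on the CKO array, which was not well above background, and of 28.3 on the WT array, which was. It was thus at least 1.95-fold lower in CKO cells, with the dimmest spot well above background standing in for the CKO level; with normexp its difference was −0.12. Insrr, which encodes a receptor that senses alkali and is made by bicarbonate-secreting intercalated cells, was higher, at 0.71 ± 0.20, or 0.17 with spike-in scaling. Of the intercalated cell markers 11 of 12, all but Rhcg, were higher as well, where 54.7% of all measured genes were. Their median was 0.73. With spike-in scaling 9 of 12 were higher, with a median of 0.18. The part of intercalated cells in the Insrr difference was not tested. The insulin receptor gene Insr was at −0.18 ± 0.20, though its other probe was at 0.22. The receptor gene Igf2r was at 0.15 ± 0.20, or −0.39 with spike-in scaling. Igfals and the insulin genes Ins1 and Ins2 were not well above background.

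Growth hormone signalling, which drives Igf1 in liver, had 8 of 9 genes measured, with 6 lower, 2 higher and a median of −0.07. None was 2-fold apart, where 4.6% of all measured genes were. Nothing is read from this absence, since that share is small. The feedback inhibitor genes Socs3, Cish and Socs2 were at −0.87, −0.59 and −0.25 and the transcription factor gene Stat5b at 0.12, or −0.42 with spike-in scaling. The 3 probes of Stat5b ran from −0.02 to 0.70. The receptor gene Ghr, named after its values were seen, had 4 probes between −0.04 and 0.01. Downstream of the IGF1 receptor no measured adaptor or kinase was 2-fold apart either, beside the same 4.6% of all measured genes. Of these 31 adaptors and kinases 26 were measured, 12 lower and 14 higher. Their median was 0.02, or −0.02 after cyclic loess or quantile normalization. With the mean of each gene's probes 9 were lower and 17 higher, with a median of 0.08. Pdpk1, which encodes the kinase that activates Akt, was at 0.80 at its brightest probe, but its 3 probes ran from −0.15 to 0.80. The docking protein gene Irs1 was at 0.34, or −0.20 with spike-in scaling, though its other probe was at 0.85. Grb14, which encodes an inhibitor of the insulin receptor, was at −0.36. Sos1, a Ras activator, was at −0.25, though its other probe was at 0.24. With spike-in scaling 25 of these 26 genes were lower, with a median of −0.53, near that of all genes.

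**Figure D4:**
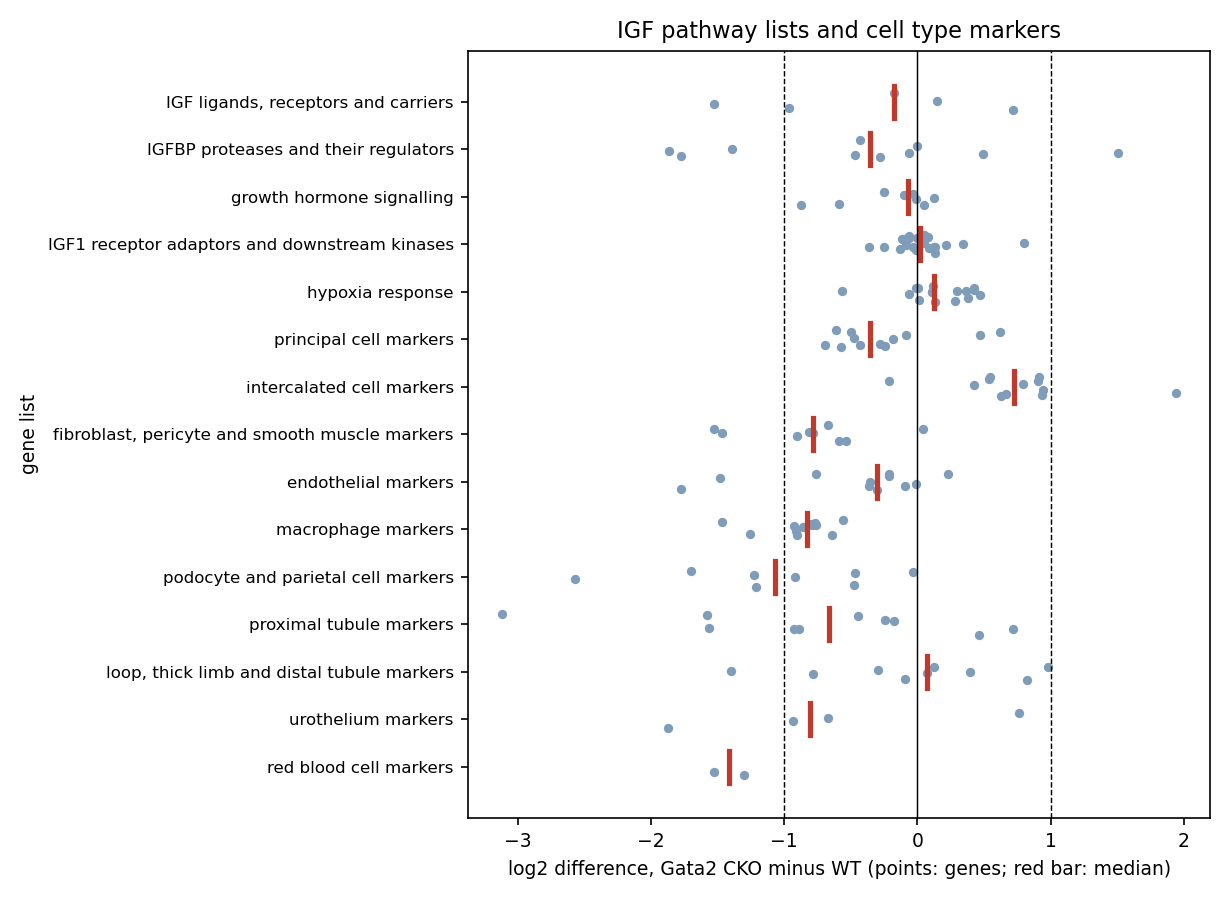
Difference of each measured gene (points, Gata2 CKO minus WT, log2, bounds included) in the IGF pathway lists and the cell type marker lists, with the median as a red bar and dashed lines at 2-fold. The adaptors and kinases lie close to 0 with a median of 0.02, the protease list spreads from −1.86 to 1.51, and the intercalated cell markers lie right of the principal cell markers.

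Markers of several other cells of the kidney were mostly lower too, where 45.3% of all measured genes were lower, with a median of 0.03. Those of the loop, thick limb and distal tubule were not, with 4 lower, 5 higher and a median of 0.07. Of fibroblast, pericyte and smooth muscle markers, 9 of 12 were measured, 8 of them lower, with a median of −0.79. Their summed level, in which Lum is included though it gave no difference, was 27.0 on the CKO array against 34.4 on the WT array. The sum is carried by Acta2, the marker that was not lower, at 0.05, with probes from −1.16 to 0.59. Pdgfra and Des were not well above background. Of endothelial markers 11 of 12 were measured and 10 were lower, with a median of −0.31. Their summed level was 2.14 on the CKO array and 2.88 on the WT array. With normexp 9 endothelial markers were measured, 4 lower and 5 higher, with a median of 0.08. All 8 podocyte and parietal cell markers were lower, with a median of −1.07 and summed levels of 2.78 on the CKO array and 4.58 on the WT array. With normexp 7 of the 8 were lower and their median was −0.37. Proximal tubule markers had a median of −0.67, or −0.23 with normexp, with 8 of 10 lower, and summed levels of 7.08 and 9.53 on the CKO and WT arrays. In the collecting duct itself, principal cell markers had a median of −0.36, with 10 of 12 lower, and summed levels of 990 and 1185. The part of these cells in the differences of Stc1, Stc2, Igfbp2 and Pappa was not tested.

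**Figure D5:**
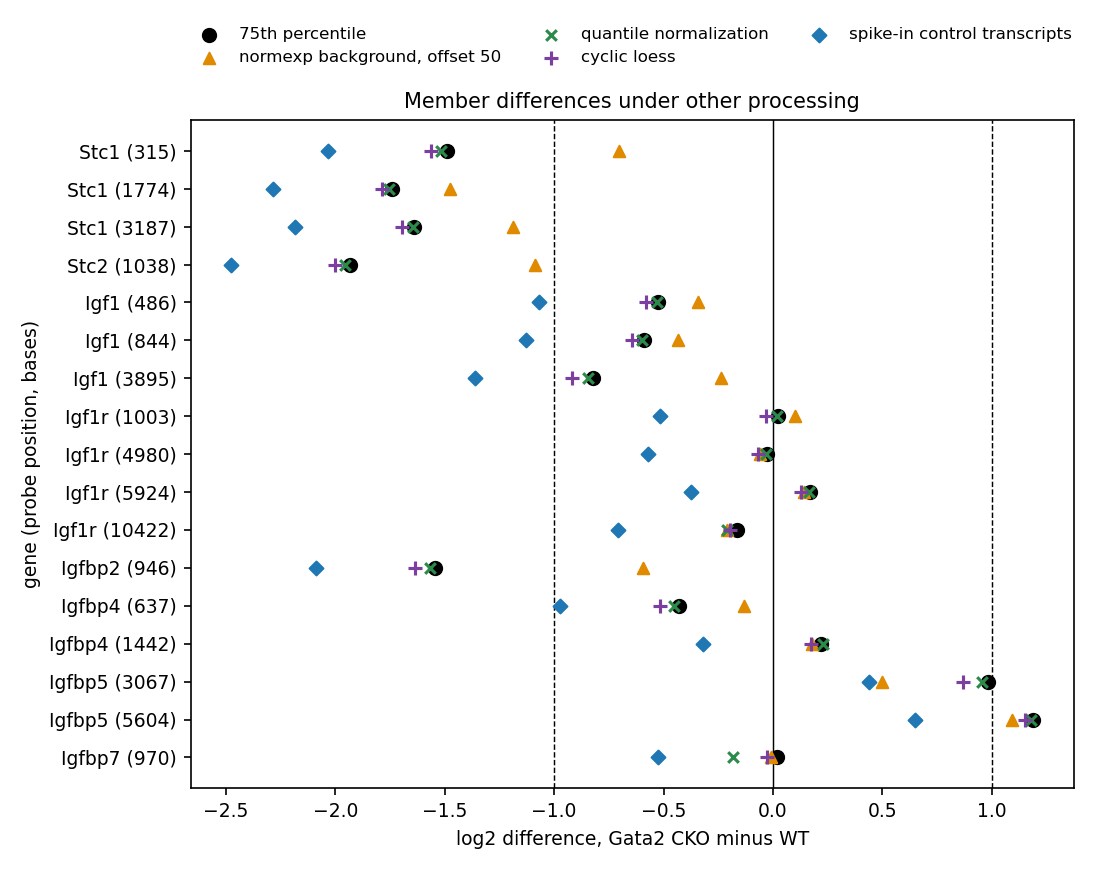
Difference of each measured probe (Gata2 CKO minus WT, log2) after 75th percentile scaling (black circles), normexp background correction (orange triangles), quantile normalization (green crosses), cyclic loess (purple plus signs) and scaling on spike-in control transcripts (blue diamonds), with dashed lines at 2-fold. Stc2 and the Stc1 probes at positions 1774 and 3187 lie below −1 under every setting drawn, and spike-in scaling moves all probes to the left.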

How the data were processed

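RNA of collecting duct cells was measured on 1-colour Agilent arrays, 1 for CKO and 1 for WT, both on 1 slide. Per the labels' protocols, low-input amplification and Cy3 labelling were used. The deposited files hold spot intensity on a linear scale, made with Agilent Feature Extraction 10.7.3.1, per the file headers, which subtracted the background with detrending and placed probes on mm9. No normalization between arrays is recorded in the headers. Here control spots and outlier flags were left out, log2 of the processed signal was set to the array's 75th percentile, and spots of a probe were averaged. Well above background is the scanner's call, for most spots of a probe. A probe well above background on 1 array only gives a bound against the lowest signal well above background. A gene takes its brightest measured probe. Genes were counted where the RefSeq table of GRCm38.p6 (names only) knows the files' symbol, 13797 of them measured.

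With 1 array per genotype no p-value is given. Named are all members with every probe, Gata2, and of each pathway list the genes 2-fold apart and up to 4 others of largest difference; exceptions are marked. The members and lists were chosen with earlier results of these data known. The steps were tested on simulated data in which only probes bright on the WT array were changed, so dim probes and bounds were not covered. The number of arrays limits the precision. Alternatives were scaling on 8 spike-in transcripts or on the median bright probe, quantile and cyclic loess normalization, normexp (offset 50), other filters on dim probes, flagged spots kept, saturated spots left out and the mean of a gene's probes, and the list medians were run through them as a choice made after seeing the data. Fits used limma 3.58.1 in R 4.3.3, and the rest Python 3.11.15.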

Additional observations from a re-analysis of the deposited data

How the results depend on the processing

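No paired analysis was possible because each genotype has 1 array. With cyclic loess, quantile normalization, the median of bright probes as scale, probes of both arrays only, flagged spots kept and saturated spots left out (0 spots were saturated), the count of member probes at least 2-fold apart was 5 lower and 1 higher. With normexp 3 member probes were lower. With spike-in scaling 8 were lower and 0 higher, with 0 member genes higher. With no filter on dim probes 7 were lower and 1 higher. Over all probes, counts of lower and higher were 230 and 76 with normexp, 2139 and 74 with spike-in scaling, and 1634 and 1590 with no filter on dim probes. Over all genes they were 168 and 54, 1336 and 40, and 870 and 602. Normexp shrinks dim probes by its construction. For spike-in scaling the cause of the shift was not tested. The 4 probes not well above background on either array give no difference.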

Other observations

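Stanniocalcin genes are known to respond to low oxygen in several cell types. All 16 genes of a hypoxia response list were measured, 13 higher in CKO cells and 3 lower, where 54.7% of all measured genes were higher. With spike-in scaling all 16 were lower. Their median was 0.12, or −0.42 with spike-in scaling, and none was 2-fold apart, where 4.6% of all measured genes were. The pyruvate dehydrogenase kinase gene Pdk1 was at 0.47, the mitophagy gene Bnip3 at 0.43 and the oxygen sensor gene Egln3 at 0.42. Each was below 0 with spike-in scaling. Ndrg1 was at −0.57. The part of oxygen in the stanniocalcin differences was not tested.

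Words read by GATA factors (the word AGATAA, the word AGATAG, the word TGATAA and the word TGATAG, on both strands, overlaps counted) were looked for in the 250 bases before each start site in RefSeq's promoter table (GRCm38.p6). The table holds 10 start sites of 9 of the named genes, and Stc1 is not among them. Sites of Igf1 and Igfbp6 held a word, those of Stc2, Igf1r, Igfbp2, Igfbp3, Igfbp4, Igfbp5 and Igfbp7 did not, and 26.5% of all 32851 promoters did. The 2 words of Igf1 overlap, 14 and 10 bases before a start site that lies inside the annotated gene. A missing word says only that these letters are not in that window.

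Urothelium markers had a median of −0.81, or −0.37 with normexp, with 3 of 4 measured lower, red blood cell markers one of −1.41 over 2 measured genes, and loop, thick limb and distal tubule markers one of 0.07 over 9.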
